A study of Mus musculus with 15 samples.

Results

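The miR-17-92 cluster is a set of 6 microRNA (miRNA) hairpins cut from a single long noncoding transcript, Mir17hg. Its mature miRNAs were followed in small RNA libraries of mouse plasma after CLP (cecal ligation and puncture, which models sepsis from gut bacteria) and after a sham operation. Members were the rows of the deposited table of miRNA read counts whose name held 1 of 7 listed mature miRNAs, mmu-miR-17-5p, mmu-miR-17-3p, mmu-miR-18a-5p, mmu-miR-19a-3p, mmu-miR-19b-3p, mmu-miR-20a-5p and mmu-miR-92a-3p (the mouse prefix mmu is left out from here on). All 7 were found among the 1205 rows. There were 9 CLP and 6 sham libraries, each from the plasma of male wild-type C57BL/6J mice taken 24 h after surgery, from which cells and platelets had been spun out. Whether each library came from its own animal is not in the labels, and the spread behind every p-value is therefore that between libraries, which may be technical in part. The age of the mice is not given.

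The cluster is known as a set of miRNAs switched on by the MYC and E2F transcription factors in dividing cells, and it is needed for normal B cell, heart and lung development in mice. A miRNA finds its messenger RNA targets mainly by its seed, bases 2 to 8 from the 5′ end, so the main products of the cluster act as 4 seed families. The miR-17 and miR-18 families are known to hold back cell cycle inhibitors and TGF-beta signalling, and miR-92a integrins and other endothelial genes. A precursor hairpin can give a miRNA from each of its arms, named 5p and 3p. Members cut from the same primary transcript can still differ in amount through later steps such as hairpin processing and stability.

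The mature sequences, from RefSeq on GRCm38.p6, are shown because members are grouped by seed below. The seed is in capitals, and each sequence runs 5′ to 3′.
miR-17-5p: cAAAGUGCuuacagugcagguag
miR-20a-5p: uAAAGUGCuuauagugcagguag
miR-18a-5p: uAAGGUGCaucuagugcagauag
miR-19a-3p: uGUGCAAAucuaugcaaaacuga
miR-19b-3p: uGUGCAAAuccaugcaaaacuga
miR-92a-3p: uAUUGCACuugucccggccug
miR-17-3p: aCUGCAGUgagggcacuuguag
Counted from the 5′ end, miR-20a-5p differs from miR-17-5p by C1U and C12U over 23 bases, with the same seed. miR-19b-3p differs from miR-19a-3p by U11C alone, outside the seed. The 6 hairpins lie on the plus strand in exon 2 of Mir17hg, at chr14:115043671-115044506 (GENCODE M21, GRCm38), a span of 836 bases in the order Mir17, Mir18, Mir19a, Mir20a, Mir19b-1, Mir92-1. The mature miR-19b-3p and miR-92a-3p are also encoded on chromosome X, by Mir19b-2 and Mir92-2 of the related miR-106a-363 cluster, with the same letters. Reads of these 2 members cannot be assigned to either locus.

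Library totals ran from 5274676 to 13576482 counts, and levels are given as CPM, counts scaled to a common library total, after TMM scaling, which corrects for library composition. By edgeR's quasi-likelihood test 201 of 426 tested miRNAs (47.2%) differed between CLP and sham at an adjusted p under 0.05, 108 higher and 93 lower in CLP, a split of 90 higher and 126 lower under scaling by library size. The median log2 fold change of all tested miRNAs was 0.11, and it was -0.12 under that other scaling, so directions are relative to the scaling. Of 5 red cell entries 1 was called lower and 0 higher in CLP, and their summed level ran from 81481 to 377729 CPM in CLP and from 157329 to 454592 CPM in sham, with 0 of the 5 at 0 in any library. An index of haemolysis was the log2 ratio of the red cell miR-451a to miR-23a-3p. It ran from -2.53 to 0.72 in CLP (median -1.69) and from -1.28 to 0.24 in sham (median -0.23). Of 4 myeloid entries 1 was called higher and 0 lower, with a sum between 1824 and 4182 CPM in CLP and between 1479 and 2143 CPM in sham, and 1 of the 4 was at 0 in some library. Of 5 platelet entries 1 was higher and 2 lower, with a sum between 25533 and 36148 CPM in CLP and between 46939 and 65364 CPM in sham. Of 4 lymphocyte entries 2 were higher and 2 lower, with a sum between 1686 and 2799 CPM in CLP and between 1850 and 2666 CPM in sham. Of 3 striated muscle entries 2 were higher and 0 lower, with a sum between 4975 and 40576 CPM in CLP and between 409 and 6686 CPM in sham. Of 3 hepatocyte entries 1 was higher and 0 lower, with a sum between 18239 and 154944 CPM in CLP and between 23653 and 47278 CPM in sham. Of 2 endothelial entries 0 were called either way, with a sum between 1791 and 4663 CPM in CLP and between 2852 and 4835 CPM in sham. The myeloid and platelet lists share miR-223-3p, and the platelet and endothelial lists share miR-126a-3p, so their counts and sums are not separate. The part of these cell types in the members' levels was not tested, and in plasma fewer releasing cells and less miRNA released per cell cannot be told apart.

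Of the tested members, only the 2 with the miR-17 seed were called different by edgeR, both higher in CLP plasma. The log2 fold change was 1.76 for miR-20a-5p and 0.94 for miR-17-5p. No change was called for the miR-19 pair, miR-17-3p or miR-92a-3p. In fits that left out 1 library, the miR-20a-5p call held in 15 of 15 and the miR-17-5p call in 5 of 15. Over all alternatives run, the miR-17-5p call was kept in 9 and lost in 17. There were 6 members that could be tested, since miR-18a-5p was too scarce to pass the filter on low counts. Of these 6, 2 were called higher and 0 lower by edgeR's quasi-likelihood test, where 25.4% of all tested miRNAs were called higher and 21.8% lower. At an unadjusted p under 0.05 the count of members that were lower was likewise 0, and DESeq2 called 2 higher and 0 lower. The median log2 fold change of the 6 was 0.06, beside 0.11 for all tested. For 0 of the 6 did every CLP library lie beyond every sham library, which 19.7% of the tested miRNAs showed.

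**Figure D1:**
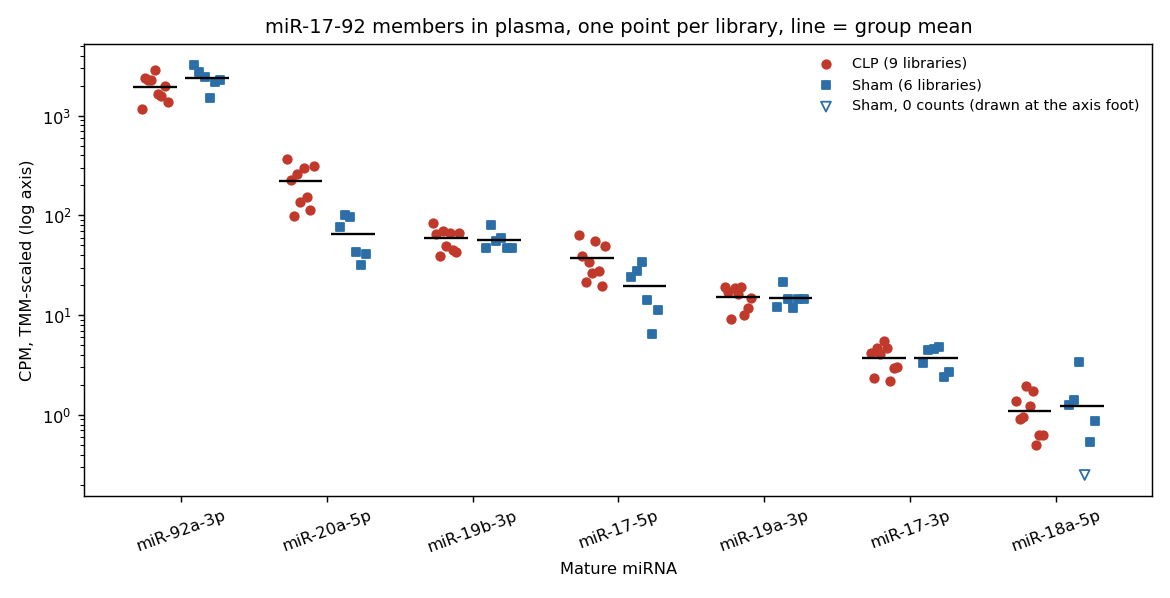
Level of each member in CPM, on a log axis, in 9 CLP libraries (red circles) and 6 sham libraries (blue squares), with a black line at each group's mean. miR-20a-5p averaged 219 CPM in CLP and 64.9 CPM in sham, while the CLP and sham points of miR-19b-3p, miR-19a-3p and miR-17-3p cover much the same range, and the open triangle is the library in which miR-18a-5p had 0 counts.

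miR-20a-5p, which has the seed of miR-17-5p, changed most. Its level in CLP was lowest in CLP 3 at 99.5 CPM, 228 CPM at the median and highest in CLP 1 at 372 CPM. In sham it was lowest in sham 5 at 32.03 CPM, 59.6 CPM at the median and highest in sham 2 at 102 CPM. Thus 8 of 9 CLP libraries exceeded every sham library, and CLP 3 alone lay within the sham range. The log2 fold change was 1.76 ± 0.35 (SE; edgeR adjusted p = 0.000462). It stayed called without any 1 of the 15 libraries, between 1.53 without sham 6 and 1.91 without sham 2, and with the haemolysis index as a covariate it was 1.71.

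miR-17-5p, the name-giving member, moved the same way by less. Its level in CLP ran from 19.6 CPM in CLP 8 through a median of 34.3 CPM to 63.99 CPM in CLP 1. In sham it ran from 6.41 CPM in sham 5 through a median of 19.2 CPM to 33.8 CPM in sham 3. The groups overlapped: 5 of 9 CLP values exceeded all sham values, and 3 of 6 sham values were under all CLP values. The log2 fold change was 0.94 ± 0.35 (SE; edgeR adjusted p = 0.0347). That call was lost without sham 1, 4, 5 or 6 and without CLP 1, 2, 4, 6, 7 or 9, with values between 0.70 and 0.93 and edgeR adjusted p up to 0.134. It was also lost with DESeq2 size factors (0.85, edgeR adjusted p = 0.0650), with scaling by library size (0.71, 0.121), with the haemolysis index as a covariate (0.92, 0.0785) with the stricter filter (0.77, 0.0946) and without both CLP 1 and CLP 5 (0.82, 0.0683).

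Within sham, both miR-17 seed members were higher in sham 1, 2 and 3 than in sham 4, 5 and 6. miR-20a-5p had 76.7, 102 and 95.6 CPM in sham 1, 2 and 3, and 42.5, 32.03 and 40.9 CPM in sham 4, 5 and 6. miR-17-5p had 24.3, 27.4 and 33.8 CPM in sham 1, 2 and 3, and 14.05, 6.41 and 11.2 CPM in sham 4, 5 and 6. The labels give no batch that would set these libraries apart. Among CLP libraries the same 3, CLP 1, CLP 6 and CLP 9, were highest for both members. Neither trait was particular to the pair. miR-92a-3p had 3253, 2734 and 2437 CPM in sham 1, 2 and 3, and 1502, 2189 and 2286 CPM in sham 4, 5 and 6. miR-19b-3p did not split so, with 59.9 CPM in sham 4 and 47.6 CPM in sham 1. miR-93-5p, a relative with the same seed, was likewise highest in CLP 1, CLP 6 and CLP 9, at 189, 150 and 157 CPM. miR-92a-3p did not share the order among CLP libraries, being lowest of its group in CLP 1.

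miR-19a-3p and miR-19b-3p, the part of the cluster best known for lymphoma growth, showed no called difference between the groups. miR-19b-3p had 39.6 CPM at its lowest in CLP 3, 64.5 CPM at the median and 84.9 CPM at its highest in CLP 1. In sham it had 47.0 CPM at its lowest in sham 6, 51.2 CPM at the median and 80.3 CPM at its highest in sham 2. The ranges overlapped nearly in full, and the log2 fold change was 0.07 ± 0.20 (SE; edgeR adjusted p = 0.800). miR-19a-3p ran from 9.08 to 19.3 CPM in CLP, with a median of 16.4 CPM, and from 11.7 to 21.3 CPM in sham, with a median of 14.4 CPM. Its log2 fold change was 0.04 ± 0.22 (SE; edgeR adjusted p = 0.877). The signs of these 2 values turned with the scaling, to -0.02 for miR-19b-3p and -0.04 for miR-19a-3p with DESeq2 size factors. With a trend of library values on the GC content of the mature sequences removed, miR-19a-3p was lower in CLP, at -0.54 (limma adjusted p = 0.0253), and miR-19b-3p was at -0.35 (0.117).

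miR-92a-3p, encoded last in the transcript and by far the most counted member, was somewhat lower in CLP without passing the test. In CLP it ran from 1164 CPM in CLP 1 through a median of 1979 CPM to 2845 CPM in CLP 5. In sham it ran from 1502 CPM in sham 4 through a median of 2361 CPM to 3253 CPM in sham 1. Of the 9 CLP values 2 were under the lowest sham value, and 1 of 6 sham values was over the highest CLP value. The log2 fold change was -0.30 ± 0.22 (SE; edgeR adjusted p = 0.254). With scaling by library size it was -0.54 and passed (edgeR adjusted p = 0.0485), and with the GC trend removed it was 0.04 (limma adjusted p = 0.858). miR-92a-3p holds 57.1% G and C, against 39.1% in miR-20a-5p, 47.8% in miR-17-5p and 34.8% in miR-19a-3p.

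The remaining members were scarce. miR-17-3p, the other arm of the Mir17 hairpin, had 13 to 63 counts in CLP libraries and 18 to 35 counts in sham libraries. Its level was 3.75 ± 1.17 CPM in CLP (SD, n = 9) and 3.72 ± 1.05 CPM in sham (SD, n = 6), with a log2 fold change of 0.02 ± 0.29 (SE; edgeR adjusted p = 0.956). miR-18a-5p, known to target the matrix protein gene Ctgf, had 4 to 22 counts in CLP libraries and 0 to 22 counts in sham libraries. The 0 was in sham 4, where 3 counts would be 0.502 CPM and the exact 95% upper limit is 0.617 CPM, and the 4 counts in CLP 8 have an exact 95% binomial interval of 0.170 to 1.59 CPM. With no filter on low counts its log2 fold change was -0.13 (edgeR adjusted p = 0.896), so no difference was detectable at this depth.

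**Figure D2:**
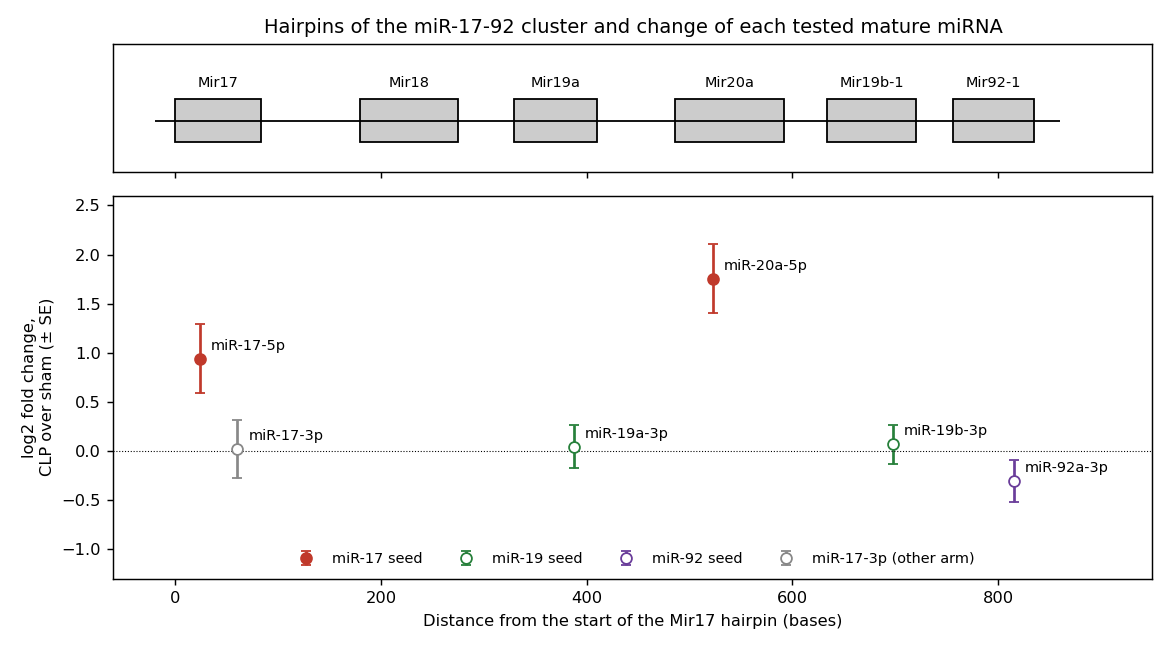
Upper panel, the 6 hairpins of the cluster by distance in bases from the start of the Mir17 hairpin; lower panel, the log2 fold change of each tested mature miRNA, CLP over sham, at its place on the transcript, with its SE. Filled circles passed an adjusted p of 0.05 and open circles did not; miR-17-5p and miR-20a-5p, at 0.94 and 1.76, stand above the other tested members, which lie between -0.30 and 0.07.

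The order of the members by mean level was the same in both groups. In CLP, means were 1945 ± 550 CPM for miR-92a-3p, 219 ± 98.1 CPM for miR-20a-5p, 58.9 ± 15.2 CPM for miR-19b-3p, 37.5 ± 15.7 CPM for miR-17-5p and 15.2 ± 4.02 CPM for miR-19a-3p (SD, n = 9). In sham, means were 2400 ± 584 CPM for miR-92a-3p, 64.9 ± 30.3 CPM for miR-20a-5p, 56.1 ± 12.9 CPM for miR-19b-3p, 19.5 ± 10.6 CPM for miR-17-5p and 14.7 ± 3.45 CPM for miR-19a-3p (SD, n = 6). miR-20a-5p stood clear of miR-19b-3p in CLP by more than the SDs, whereas in sham these neighbours differed by less than their spread, as did miR-17-5p and miR-19a-3p. Ligation of adapters favours some sequence ends, so levels of different miRNAs compare counts and not molecules.

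Summed by seed, the make-up of the cluster's counts differed between the groups. The miR-17 family took 12.2% ± 7.15 of the members' counts in CLP (SD, n = 9), between 4.94% and 25.5%, and 3.25% ± 1.24 in sham (SD, n = 6), between 1.68% and 4.90%. miR-92a-3p took 84.2% ± 8.49 in CLP and 93.6% ± 1.78 in sham. The miR-19 family took 3.41% ± 1.305 in CLP and 2.90% ± 0.897 in sham. With miR-92a-3p left aside, the miR-17 family took between 69.0% and 81.0% of the rest in CLP libraries and between 37.3% and 62.7% in sham libraries, so these ranges did not overlap. No test was run on these shares. The summed level of all members was 2281 ± 483 CPM in CLP and 2560 ± 611 CPM in sham, a difference smaller than either SD.

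Ratios of members within a library do not depend on scaling, and they test whether members changed unequally, with reads of miR-19b-3p and miR-92a-3p from either locus. Of the 21 pairs of members, 9 differed between CLP and sham at an adjusted p under 0.05 by an exact two-sided permutation test over libraries, adjusted over the 21 pairs. All 9 joined a miR-17 seed member to another member. Of the 15 pairs among tested members 9 passed at an unadjusted p under 0.05, and 57.2% of the 90525 pairs of all tested miRNAs did so. Unequal change within the cluster was therefore about as common as between any 2 miRNAs in these libraries. The share of all pairs whose ratios did not overlap between the groups was not counted. Full separation of a ratio is therefore given below as a description only.

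miR-20a-5p was set apart from each other tested member. Its log2 ratio to miR-19b-3p ran from 1.33 to 2.24 in CLP, with a median of 1.82, and from -0.56 to 0.80 in sham, with a median of 0.07. All 9 CLP libraries lay above every sham library, so that there were about 3.47 reads of miR-20a-5p per read of miR-19b-3p in CLP and 1.07 in sham (geometric means). The difference was 1.70 on the log2 scale (exact permutation p = 0.0002, the smallest this design can give, adjusted 0.0021). Against miR-92a-3p the log2 ratio was -3.24 ± 1.01 in CLP (SD, n = 9) and -5.31 ± 0.57 in sham (SD, n = 6), a difference of 2.07 (exact permutation p = 0.0008, adjusted 0.0042), again with all 9 CLP libraries above every sham library.

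The miR-17 seed pair also separated from each other. The log2 ratio of miR-20a-5p to miR-17-5p was 2.52 ± 0.20 in CLP (SD, n = 9) and 1.80 ± 0.29 in sham (SD, n = 6), a difference of 0.72 (exact permutation p = 0.0004, adjusted 0.0028). In 8 of 9 CLP libraries it was above every sham library. G and C make up 39.1% of miR-20a-5p and 47.8% of miR-17-5p. With the GC trend removed their log2 fold changes lay closer together, at 1.34 and 0.96, and the part of GC content in this ratio was not tested. miR-20a-5p held values that were not whole in 8 libraries and miR-17-5p in 3, so part of their reads was divided between entries, by an amount not given here. The 5 ratios of miR-20a-5p to other tested members stayed called without any 1 library, with adjusted p up to 0.0126.

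The 2 arms of the Mir17 hairpin changed unequally. The log2 ratio of miR-17-5p to miR-17-3p was 3.25 ± 0.74 in CLP (SD, n = 9) and 2.21 ± 0.66 in sham (SD, n = 6), or 9.52 reads of the 5p arm per read of the 3p arm in CLP and 4.62 in sham (exact permutation p = 0.0174, adjusted 0.0406). In 6 of 9 CLP libraries the ratio exceeded every sham library. This call was lost without sham 4, 5 or 6 and without CLP 1, 2, 4, 6, 7 or 9, with differences of at least 0.88 and adjusted p up to 0.0956. That of miR-17-5p to miR-92a-3p (1.36, adjusted 0.0320) was lost without sham 1, 5 or 6 or CLP 7 (adjusted p at most 0.0813), and that of miR-17-5p to miR-19a-3p (1.01, adjusted 0.0180) without sham 5 (0.0539).

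The miR-19 pair kept a narrow ratio. The log2 ratio of miR-19a-3p to miR-19b-3p was -1.96 ± 0.20 in CLP (SD, n = 9) and -1.93 ± 0.24 in sham (SD, n = 6), a difference of -0.03 (exact permutation p = 0.787, adjusted 0.860). Over all 15 libraries the SD of this log2 ratio was 0.21, the smallest that either member had with any of 425 other tested miRNAs. The ratio of miR-19b-3p to miR-92a-3p was -5.03 ± 0.69 in CLP and -5.41 ± 0.49 in sham (difference 0.37, exact permutation p = 0.276, adjusted 0.421).

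**Figure D3:**
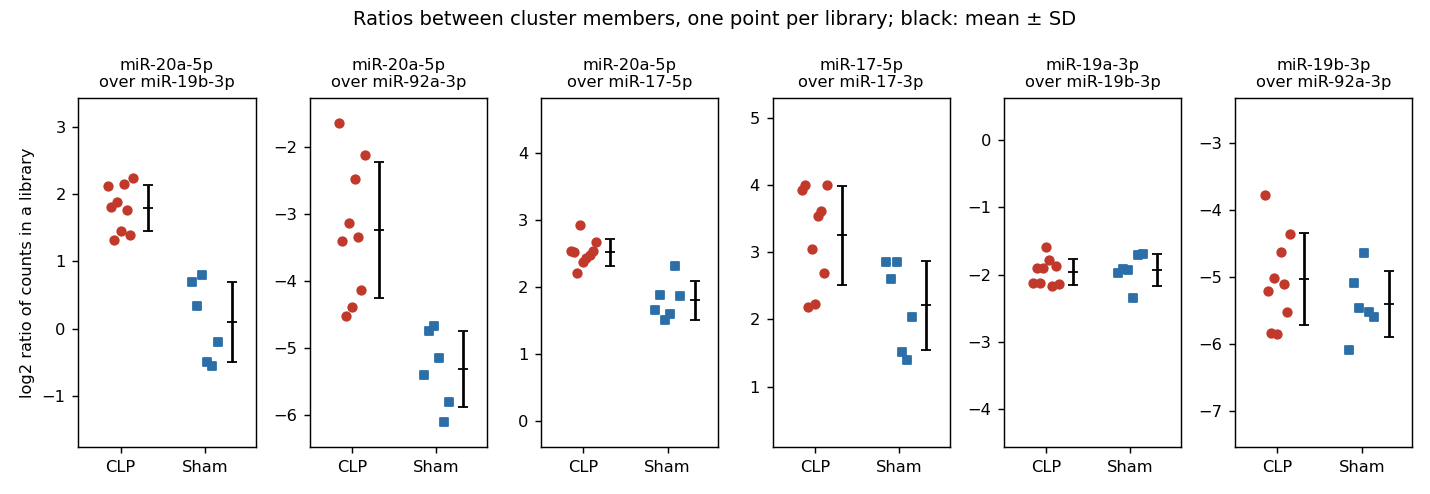
log2 ratio of counts of 2 members within each library, for 9 CLP libraries (red circles) and 6 sham libraries (blue squares), with mean and SD in black; all panels span the same number of log2 units. Ratios of miR-20a-5p to miR-19b-3p and to miR-92a-3p do not overlap between groups, while that of miR-19a-3p to miR-19b-3p averages -1.96 in CLP and -1.93 in sham.

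By the SD of the log2 ratio over the 15 libraries, the miRNAs outside the cluster nearest to miR-17-5p were miR-15a-5p (0.38), let-7i-5p (0.41) and miR-26b-5p (0.42). miR-20a-5p came next at 0.43, rank 4 of 425 for either of the pair. The nearest to miR-92a-3p were miR-298-5p (0.26), miR-3082-3p (0.31) and miR-185-5p (0.36). The cluster members ranked from 58 to 325 of 425 in their likeness to miR-92a-3p, with miR-20a-5p the farthest at 1.34. This SD takes both groups together, so a difference between CLP and sham enters it. For miR-20a-5p over miR-92a-3p the SD was 1.01 within CLP and 0.57 within sham.

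Relatives with the same seeds, encoded in the miR-106b-25 cluster of the Mcm7 gene, in the miR-106a-363 cluster and elsewhere, were set beside the members. Of 10 relatives listed, 9 were in the table and 7 were tested. Of these, 3 were called higher and 0 lower by edgeR, where 25.4% of all tested miRNAs were higher and 21.8% lower. The 3 include miR-20b-5p, which passed the filter on low counts through the CLP libraries, so the count is a description only. At an unadjusted p under 0.05 miR-92b-3p was also lower, and DESeq2 called it lower (-0.79, adjusted p = 0.0234). The sequences of relatives that share the seed of miR-92a-3p are shown for comparison with that member above.
miR-25-3p: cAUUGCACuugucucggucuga
miR-32-5p: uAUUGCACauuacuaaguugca
miR-363-3p: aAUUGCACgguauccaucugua
miR-92b-3p: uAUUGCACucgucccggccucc
miR-25-3p averaged 13333 ± 3800 CPM in CLP (SD, n = 9) and 5934 ± 2725 CPM in sham (SD, n = 6), with a log2 fold change of 1.17 ± 0.27 (SE; edgeR adjusted p = 0.00146). miR-32-5p averaged 10.2 ± 4.99 CPM in CLP and 2.92 ± 1.42 CPM in sham, at 1.78 ± 0.40 (SE; edgeR adjusted p = 0.00138). miR-363-3p (0.55 ± 0.24, edgeR adjusted p = 0.0677) and miR-92b-3p (-0.72 ± 0.30, 0.0593) did not pass, though miR-92b-3p passed in 8 of 15 fits that left out 1 library.

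Of 10 pairs of a member and a relative with its seed, chosen after the values were seen, 7 differed at an adjusted p under 0.05. At an unadjusted p under 0.05 there were 8, which 57.2% of all pairs of tested miRNAs reached. The 8 include miR-17-5p over miR-20b-5p, a relative that passed the filter through the CLP libraries, so the count is a description only. The log2 ratio of miR-92a-3p was lower in CLP over miR-25-3p (difference -1.55, exact permutation p = 0.0002, adjusted 0.000666), over miR-32-5p (-2.21, adjusted 0.000999) and over miR-363-3p (-0.85, adjusted 0.0133). Its difference from miR-92b-3p was 0.40 (exact permutation p = 0.235, adjusted 0.235). G and C make up 31.8% of miR-32-5p, 40.9% of miR-363-3p, 57.1% of miR-92a-3p and 63.6% of miR-92b-3p. The G and C content of miR-25-3p lies between those of miR-363-3p and miR-92a-3p. Its edgeR log2 fold change of 1.17 was above the 0.55 of miR-363-3p, so these fold changes were not in the order of GC content. With the GC trend removed the log2 fold changes were 1.13 for miR-32-5p, 0.19 for miR-363-3p, 0.04 for miR-92a-3p, -0.17 for miR-92b-3p and 1.26 for miR-25-3p.

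Of the relatives with the miR-17 seed, miR-20b-5p, from chromosome X, had 7 to 29.5 counts in CLP libraries and 0 to 7.5 counts in sham libraries. It averaged 2.003 ± 1.02 CPM in CLP and 0.397 ± 0.398 CPM in sham, a log2 fold change of 2.24 ± 0.62 (SE), and like miR-20a-5p it held values that were not whole in 8 libraries. It was left in the fit in 9 of the 15 that left out 1 library. miR-93-5p (0.44 ± 0.30, edgeR adjusted p = 0.227) and miR-106b-5p (-0.08 ± 0.27, 0.810) did not pass, and the sign of miR-106b-5p turned to 0.12 with the haemolysis index as a covariate. The log2 ratio of miR-20a-5p to miR-106b-5p was higher in CLP by 1.88 (exact permutation p = 0.0002, adjusted 0.000666). That of miR-20a-5p to miR-93-5p was higher by 1.23 (same p). In each, all 9 CLP libraries lay above every sham library, and the share of all pairs so separated was not counted. For miR-17-5p these differences were 1.16 (adjusted 0.00360) and 0.52 (adjusted 0.0323). Over miR-20b-5p the difference was -0.79 for miR-20a-5p and -1.502 for miR-17-5p. These values are a description only, since miR-20b-5p passed the filter through the CLP libraries. With 0 to 7.5 counts of miR-20b-5p in sham libraries, the sham ratios rest in part on the pseudocount.

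**Figure D4:**
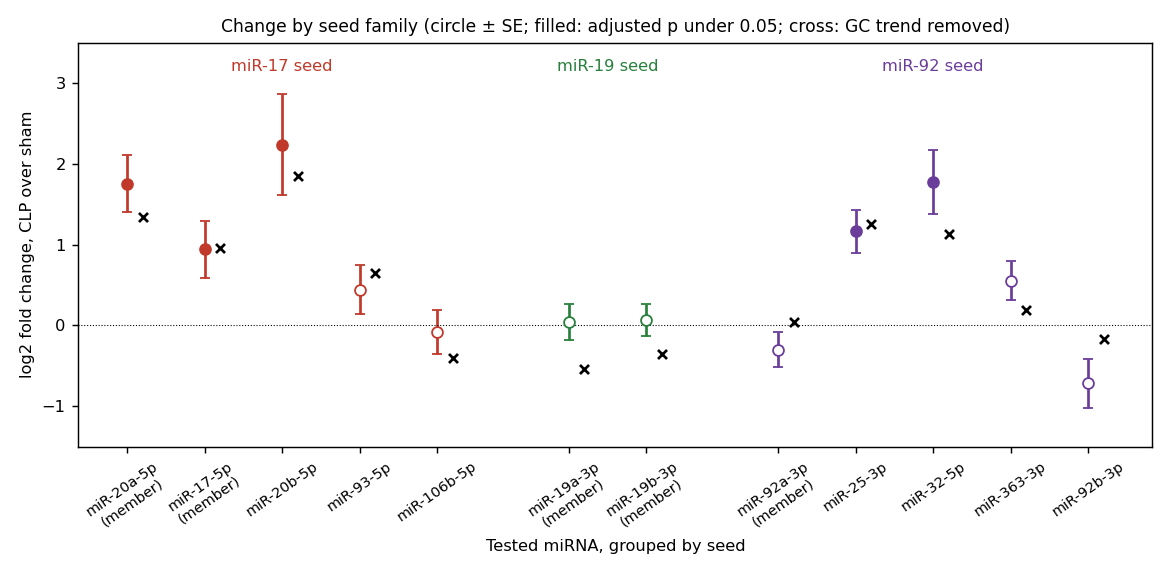
log2 fold change, CLP over sham, of tested cluster members and of tested relatives grouped by shared seed, as circles with SE, filled where the adjusted p was under 0.05; crosses give the value once the GC trend was removed. Values within the miR-17 seed run from -0.08 for miR-106b-5p to 2.24 for miR-20b-5p, which passed the filter through CLP libraries, and within the miR-92 seed from -0.72 for miR-92b-3p to 1.78 for miR-32-5p.

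Of the 5 other arms of the cluster's hairpins, 3 were in the table and 1 was tested. miR-18a-3p was at 4.74 ± 2.13 CPM in CLP (SD, n = 9) and 6.02 ± 2.02 CPM in sham (SD, n = 6), with a log2 fold change of -0.34 ± 0.33 (SE; edgeR adjusted p = 0.424), and in both groups its mean was above that of miR-18a-5p from the same hairpin. miR-20a-3p had at most 10 counts in any library. miR-92a-1-5p, which only Mir92-1 on chromosome 14 encodes, had reads in 5 of 9 CLP libraries, at most 6 counts, and in 0 of 6 sham libraries. miR-19a-5p, miR-19b-1-5p and the 5p arms of Mir19b-2 and Mir92-2 had no row in the deposited table and could not be analysed.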

How the data were processed

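Total RNA from 100 µl of platelet-free plasma was extracted with Trizol LS, and 100 ng went into a Norgen Biotek small RNA kit with ligated adapters, per the labels' protocols. The deposited table holds expected counts from exceRpt, mostly per mature miRNA and not scaled for depth. Of its 1205 rows, 44 carry a precursor name and 19 hold several names. The submitters' processing notes name mm10 as the build, and the sources used here give no aligner or miRNA release. Of all deposited values 4.56% were not whole, and counts were rounded for the models. Entries kept by filterByExpr (426, with at least 99.97% of each library's counts) were scaled by TMM and tested with edgeR 4.0.16 (robust quasi-likelihood F test, R 4.3.3), adjusted by Benjamini-Hochberg over all 426, at a threshold of 0.05; SE is the log2 fold change over the square root of F. Pair ratios used a pseudocount of 0.5 counts. Intervals and floors cover counting error only. Fits were tested on simulated data. Libraries of a group differed by far more than sampling noise (chi-square per degree of freedom at least 235). Alternatives used DESeq2 1.42.0 and limma 3.58.1; the GC trend was a loess per library over the 373 tested miRNAs with a RefSeq sequence (87.6%). Named miRNAs were the members, the other arms, the seed relatives and, for miR-17-5p and miR-92a-3p, the 3 nearest by ratio SD. Members and lists were chosen with earlier results of these data known.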

Additional observations from a re-analysis of the deposited data

Results flagged for a closer look

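Of 56 sets of values screened, the members' CPM and pair ratios in each group, 4 had a library set far from the others of its group. The nominal rate of the screen is about 1 in 20 sets, and it was not estimated from these data. Sham 2 was highest for miR-19a-3p, at 21.3 CPM. Sham 4 was highest for 3 log2 ratios over miR-18a-5p, at 8.99 for miR-20a-5p, 7.40 for miR-17-5p and 5.88 for miR-17-3p. In sham 4 miR-18a-5p had 0 counts, so those ratios rest on the pseudocount. Without sham 4, 10 member pairs differed in place of 9: those of miR-20a-5p and miR-17-5p with miR-18a-5p were added, and that of miR-17-5p with miR-17-3p was lost.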

How the results depend on the processing

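The rise of miR-20a-5p kept its direction and stayed called under all 26 alternatives run, between 1.34 with the GC trend removed and 1.91 without sham 2. Members called higher numbered 2 with DESeq2, with no filter and with limma (with or without the GC trend), and 1, miR-20a-5p, with DESeq2 size factors, library size scaling, the stricter filter, a haemolysis covariate, CLP 1 and CLP 5 both left out, replicates 1 to 6 alone without a block, and the replicate block; leaving out 1 library gave 1 to 2. Members called lower numbered 1 with library size scaling (miR-92a-3p) and 1 with the GC trend removed (miR-19a-3p, at -0.54; 0.02 by limma with the trend kept), and 0 otherwise. All called miRNAs numbered 307 with no filter, among more tested, and 184 to 213 on leaving out 1 library. Pairs with an unequal change numbered 11 with a pseudocount of 5 counts, 10 on log2 CPM, 9 without both CLP 1 and CLP 5, and 6 to 10 on leaving out 1 library. The labels do not say that equal replicate numbers share an animal or day, and same-numbered libraries deviated together by correlations from -0.15 to -0.03, with 0 of 6 CLP libraries closest to their own number. With the replicate number as a block 152 miRNAs were called over 12 libraries and 179 without it, miR-17-5p was at 1.10 with the block (edgeR adjusted p = 0.0611) and 0.94 without (0.0777), and 0 pairs passed a sign-flip test over 6 pairs, whose smallest p of 0.0312 became 0.109 after adjustment. Depth limits miR-18a-5p, which had at most 22 counts in a library.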
